A study of Mus musculus with 10 samples.

Results

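Troponin is the calcium switch of the thin filament of striated muscle. It is a complex of a calcium-binding subunit (troponin C), an inhibitory subunit that holds actin off myosin (troponin I), and a subunit that anchors the complex to tropomyosin (troponin T). Each subunit is encoded by separate genes for slow and fast fibers, and adult cardiac muscle has its own troponin I and T. The 7 genes described here were taken by name from the 16112 genes in the count tables, with earlier results of these data known. They are Tnnc1 (troponin C of slow and cardiac muscle) and Tnnc2 (fast), Tnni1 (slow) and Tnni2 (fast), and Tnnt1 (slow), Tnnt3 (fast), and Tnnt2 (cardiac). All 7 were present in the tables. Symbols came from matching the Ensembl identifiers of the tables to GENCODE M21. This release annotates GRCm38, which was also the genome of the authors' alignment.

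RNA came from 3 hind limb or trunk muscles of mice labelled wild type, of the strain B6C3Fe a/a-Ttnmdm/J, which is named for the mdm mutation of the titin gene. The fast extensor digitorum longus (EDL, n = 3, mice aged 42, 54, and 44 days) and the psoas (n = 3, aged 42, 54, and 44 days) were set beside the slower soleus (n = 4, aged 42, 44, 32, and 44 days). The labels gave 7 animal codes for the 10 libraries, and psoas 1 shared its code with soleus 1, EDL 3 with soleus 2, and psoas 3 with soleus 4. The methods of the study give fewer mice than there are codes, so that some codes may belong to the same mouse, and which ones is not given in the sources used here. The p-values measure the spread between these libraries, which the main fit treated as independent.

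Total counts ranged from 15016122 to 47825953 in EDL, from 13820086 to 50431713 in psoas, and from 12737971 to 26848423 in soleus. The reads of replicates 1 and 2 of EDL and of psoas had been quality-trimmed and those of the other 6 libraries had not. EDL 3 and psoas 3 were thus the untrimmed libraries of their muscles. They were also the shallowest and the only ones labelled female there, and these properties cannot be told apart. Each muscle expressed all 5 skeletal muscle markers. The summed level of 5 slow fiber markers (Myh7, Myl2, Myl3, Atp2a2, and Tpm3) ran from 16856 to 27725 CPM (counts per 1000000, after scaling by TMM) in soleus, from 69.4 to 314 in EDL, and from 36.6 to 106 in psoas. The summed level of 5 fast fiber markers (Myh4, Myl1, Mylpf, Atp2a1, and Actn3) ran from 5219 to 9210 CPM in soleus, from 53242 to 76854 in EDL, and from 75851 to 81954 in psoas. In whole muscle, fewer fibers of a type and less RNA per fiber cannot be told apart.

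The slow troponin genes lie on different chromosomes, in GRCm38 at 14:31208312-31211729 (Tnnc1, plus strand), 1:135779434-135810989 (Tnni1, plus strand), and 7:4504570-4516382 (Tnnt1, minus strand). Their promoters are shown because these 3 genes moved together. The RefSeq table (GRCm38.p6) had promoter sequences for 5 of the 7 members, and those of Tnni2 and Tnnt3 are not shown. Each window runs from 250 to 31 bases before an annotated start, 5′ to 3′ on the strand of the gene, and its 220 bases hold 0 annotated untranslated bases, although the window of Tnnc2 overlaps an exon of a noncoding transcript of that gene. RefSeq gives 2 starts for Tnni1 in this table, of which the first is shown. It lies inside the span of the gene in GENCODE, which also annotates transcripts that begin further upstream. The window of Tnnt1 likewise lies within the span of its gene. The windows are chr14:31208062-31208281 for Tnnc1, chr1:135799171-135799390 for Tnni1, chr7:4516006-4516225 for Tnnt1, and, for comparison with a fast gene, chr2:164779765-164779984 for Tnnc2. Capitals mark matches on either strand to the E-box CANNTG (the core bound by MyoD family factors), the MCAT element CATTCC (bound by TEAD factors), and the CACCC box CCACCC.
Tnnc1: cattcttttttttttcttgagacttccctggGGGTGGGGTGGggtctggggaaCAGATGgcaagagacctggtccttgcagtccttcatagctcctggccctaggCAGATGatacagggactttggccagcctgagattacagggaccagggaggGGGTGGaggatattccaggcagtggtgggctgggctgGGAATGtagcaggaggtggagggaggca
Tnni1: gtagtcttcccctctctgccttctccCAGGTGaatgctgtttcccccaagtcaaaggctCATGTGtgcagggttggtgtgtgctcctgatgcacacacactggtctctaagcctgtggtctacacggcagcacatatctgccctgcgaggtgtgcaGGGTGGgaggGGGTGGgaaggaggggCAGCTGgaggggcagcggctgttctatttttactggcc
Tnnt1: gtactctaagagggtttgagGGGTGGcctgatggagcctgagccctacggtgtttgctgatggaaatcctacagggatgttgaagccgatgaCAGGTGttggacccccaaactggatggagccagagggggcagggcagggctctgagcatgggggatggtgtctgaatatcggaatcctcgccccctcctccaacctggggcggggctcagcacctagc
Tnnc2: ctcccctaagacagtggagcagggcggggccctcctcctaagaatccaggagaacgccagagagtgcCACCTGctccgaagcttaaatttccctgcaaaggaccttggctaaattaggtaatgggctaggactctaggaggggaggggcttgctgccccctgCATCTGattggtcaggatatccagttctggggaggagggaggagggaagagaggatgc

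The slow promoters each held both an E-box and a CACCC box. There were 2 E-boxes and 3 CACCC boxes (2 of them overlapping) before Tnnc1, 3 and 2 before Tnni1, and 1 and 1 before Tnnt1. Tnnc2 had 2 E-boxes and 0 CACCC boxes. The windows before starts 1 and 2 of Tnnt2, not shown, had 4 and 1 E-boxes and 0 CACCC boxes. How many mouse promoter windows hold both motifs was not determined. The only MCAT match was before Tnnc1, 58 to 53 bases from the start. Of 32841 mouse promoter windows of the same length, 62.1% held an E-box, 25.0% a CACCC box, and 11.4% an MCAT element. MEF2, CArG, and MEF3 (TCAGGTT) elements, found in 2.60%, 1.30%, and 3.10% of windows, had no match in the windows of the 5 members with a sequence.

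The subunit genes are paralogs, and how reads with several alignments were counted is not given in the sources used here. The longest exact run shared by slow and fast transcripts, in coding sequence in each case, is shown because reads of 75 bases would have to match both genes to be confused.
Tnnc1 and Tnnc2: tgagttcaaggctgcctttga
Tnni1 and Tnni2: ctgggctctaagcacaaggtgt
Tnnt1 and Tnnt3: aggaggaagcccccga
These runs were 21, 22, and 16 bases long. Tnnt2 shared at most 15 bases with Tnnt1 and 17 with Tnnt3. The gene that did share sequence was Tnnc2, not with a paralog but with its neighbor on the opposite strand, as given with its values below.

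The slow genes were scarce in both fast muscles and abundant in soleus. Tnnc1, the calcium sensor of slow fibers and heart, had a TMM-normalized level of 180, 269, 184, and 263 CPM in soleus 1 to 4, against 0.304, 0.961, and 3.68 CPM in EDL 1 to 3 and 0.237, 0.444, and 0.496 CPM in psoas 1 to 3. The lowest soleus library stood far above the highest of the other 6 libraries, and EDL 1 lay within the range of psoas. The difference (log2 fold change ± SE) was 7.23 ± 0.72 from EDL (150.0-fold, adjusted p = 0.000132) and 9.27 ± 0.83 from psoas (616-fold, adjusted p = 8.39e-05), with edgeR's quasi-likelihood test and Benjamini-Hochberg adjustment over the 16112 genes. In psoas, Tnnc1 rested on 7 to 9 reads per library.

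Tnni1, the slow inhibitory subunit, had levels of 665, 1128, 1173, and 1546 CPM in soleus 1 to 4. Those in EDL were 1.91, 4.47, and 16.8 CPM, and those in psoas 0.528, 1.33, and 2.20 CPM. The muscles did not overlap between soleus and either fast muscle, while EDL 1 lay within the range of psoas. The soleus level was higher by 7.22 ± 0.83 than in EDL (149-fold, adjusted p = 0.000313) and by 9.80 ± 0.95 than in psoas (889-fold, adjusted p = 0.000139).

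Tnnt1, the slow tropomyosin-binding subunit, was the most abundant of the slow troponin genes in each muscle per kilobase of exon. Its levels were 2011, 2434, 2403, and 2755 CPM in soleus, 5.56, 12.3, and 34.2 CPM in EDL, and 1.58, 2.16, and 6.02 CPM in psoas. EDL and psoas overlapped only in that psoas 3 lay above EDL 1. The soleus level was higher by 7.12 ± 0.74 than in EDL (139-fold, adjusted p = 0.000156) and by 9.57 ± 0.83 than in psoas (758-fold, adjusted p = 7.30e-05).

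**Figure D1:**
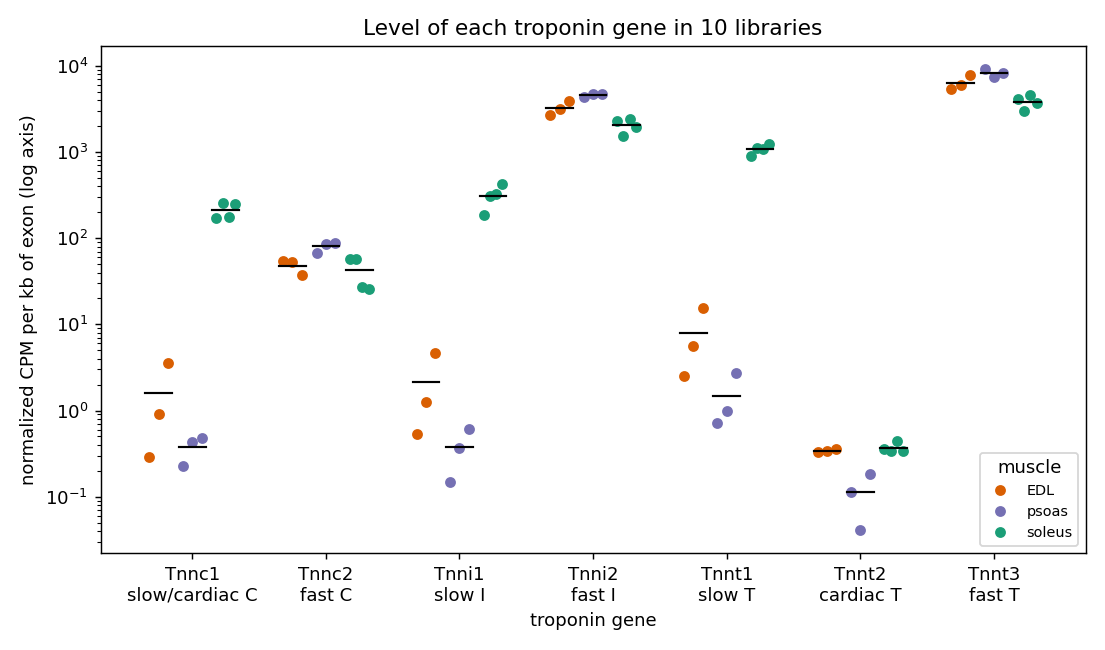
Normalized level per kilobase of exon (CPM per kb, log axis) of the 7 troponin genes; each point is a library, bars are means, and colors mark EDL (n = 3), psoas (n = 3), and soleus (n = 4). Soleus stands far above the fast muscles in Tnnc1, Tnni1, and Tnnt1 and below them in Tnni2 and Tnnt3, and Tnnc2 lies well under the other fast genes in all libraries.

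The fast genes stayed abundant in soleus. Tnni2, the fast inhibitory subunit, had levels of 3409, 2310, 3652, and 2961 CPM in soleus, 4030, 4734, and 5814 CPM in EDL, and 6612, 7013, and 7011 CPM in psoas. The 3 muscles did not overlap. The log2 difference of soleus from psoas was -1.16 ± 0.25 (2.23-fold lower, adjusted p = 0.00946), which passed the thresholds by a small margin. The difference from EDL, -0.66 ± 0.25 (adjusted p = 0.0843), did not pass.

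Tnnt3, the fast tropomyosin-binding subunit, gave the highest level of any troponin gene in every library. It was at 6550, 4685, 7230, and 5910 CPM in soleus, at 8463, 9449, and 12431 CPM in EDL, and at 14588, 11866, and 13028 CPM in psoas. Soleus lay below each fast muscle without overlap, and EDL 3 reached into the range of psoas. Neither the difference of -1.11 ± 0.27 from psoas (adjusted p = 0.0177) nor that of -0.73 ± 0.27 from EDL (adjusted p = 0.0777) passed. The difference from psoas was called in DESeq2 (-1.13, adjusted p = 1.62e-06) and in limma-voom with the animal code as a random effect (-1.13, adjusted p = 0.00313). Soleus 2 was the lowest library of all 10 in both Tnni2 and Tnnt3.

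Tnni2 and Tnnt3 kept a similar ratio across muscles. Per kilobase of exon, Tnnt3 was 1.89 to 2.02 times Tnni2 in EDL, 1.60 to 2.09 times in psoas, and 1.82 to 1.92 times in soleus. They lie on the same stretch of chromosome 7 (142441808 to 142444410 and 142498836 to 142516009, both on the plus strand), with 54425 bases between them. The slow pair was less even, with Tnnt1 at 3.33 to 4.74 times Tnni1 in EDL, 2.64 to 4.90 times in psoas, and 2.91 to 4.94 times in soleus. In psoas these ratios rest on 20 to 31 reads of Tnni1 and 34 to 85 of Tnnt1 per library. Among 16032 genes with a symbol, Tnnt3 ranked 21 in EDL, 22 in psoas, and 22 in soleus by mean level per kilobase, and Tnni2 ranked 28, 27, and 28. Tnnt1 went from rank 2730 in EDL and 7937 in psoas to rank 47 in soleus, Tnni1 from 6692 and 11984 to 113, and Tnnc1 from 7783 and 11972 to 168.

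Tnnc2, fast skeletal troponin C, had far lower levels than the other fast genes. Its differences had the same sign as theirs in each comparison. Its levels were 43.3, 42.4, and 29.99 CPM in EDL, 53.8, 69.2, and 70.1 CPM in psoas, and 46.3, 46.3, 22.0, and 20.7 CPM in soleus. EDL and soleus overlapped, and psoas lay above both. As for Tnnt3, none of its differences passed the thresholds in edgeR. They were -0.19 ± 0.30 between soleus and EDL (adjusted p = 0.68) and -0.92 ± 0.29 between soleus and psoas (adjusted p = 0.0572). Per kilobase of exon, its level was below that of Tnni2 by a factor of 26.7 to 104 and below that of Tnnt3 by a factor of 51.2 to 209, although the subunits are present in equal number in the complex.

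In the annotation, Tnnc2 shares exon bases with a neighboring gene. Tnnc2 lies at 2:164777161-164779967 on the minus strand, and Ube2c, which encodes a ubiquitin-conjugating enzyme of the cell cycle, lies at 2:164769898-164778822 on the plus strand. Of 800 exon bases of Tnnc2, 592 (74.0%) are also exon bases of Ube2c, as are 477 of its 480 coding bases. Of the 6 exons of its coding transcript, 4 lie wholly and 1 partly within an exon of Ube2c. The other 6 troponin genes share no exon base with another gene, and 1.87% of all genes share over 50% of theirs. The libraries were made with a stranded kit, but the strand setting of the counting is not given in the sources used here, so reads of Tnnc2 and Ube2c may not have been told apart or may have been set aside. Ube2c had counts of 568 to 3333 per library. With the whole Tnnc2 count scaled to its 208 unshared exon bases, Tnni2 was at 6.94 to 26.9 times its level. Tnnt3 was at 13.3 to 54.5 times in these units. This scaling sets no limit on the effect of the overlap, since reads that reach into shared bases may also have been set aside. The part of the overlap in the low count was not tested.

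The ratio of Tnnc2 to Ube2c counts divided the libraries along read trimming, with EDL and psoas libraries on both sides. Soleus had no trimmed library, so for it muscle and trimming cannot be told apart. In EDL and psoas, trimming also went with depth and labelled sex. The ratio was 1.09 to 1.22 in the 4 libraries with trimmed reads and 0.342 to 0.640 in the 6 without. By muscle, it was 0.342 to 1.17 in EDL, 0.468 to 1.22 in psoas, and 0.389 to 0.640 in soleus. This ratio was examined after its values were seen, and its part in the Tnnc2 results was not tested.

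**Figure D2:**
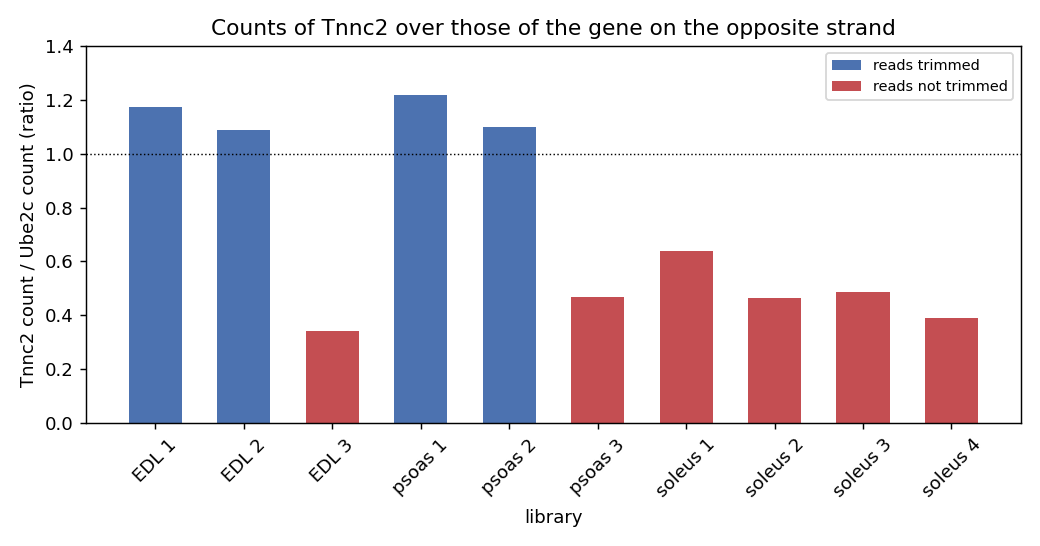
Count of Tnnc2 divided by the count of Ube2c, the gene on the opposite strand whose exons hold 592 of the 800 Tnnc2 exon bases, in each library; bars start at 0 and colors mark whether the reads were quality-trimmed. The 4 trimmed libraries lie above 1 (dotted line) and the 6 untrimmed libraries below it.

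Tnnt2, cardiac troponin T, was at low levels in each muscle. Its levels were 2.59, 2.60, and 2.75 CPM in EDL, 0.871, 0.317, and 1.42 CPM in psoas, and 2.74, 2.60, 3.43, and 2.64 CPM in soleus. EDL and soleus overlapped and psoas lay below both, on 5 to 33 reads. The difference between soleus and psoas, 1.72 ± 0.37, passed the thresholds at an adjusted p of 0.00987, and that between psoas and EDL did not (-1.61 ± 0.38, adjusted p = 0.0223). The gene for cardiac troponin I, Tnni3, which is no member of this set, was at or under the 3 counts that a count of 0 allows in all 3 psoas libraries and at 0.399 to 0.897 CPM in soleus. Of the 5 heart markers, Nppa and Mybpc3 were not in the count tables, from which the authors had dropped genes with few reads. Ryr2 was at a mean of 0.257, 0.230, and 0.191 CPM in EDL, psoas, and soleus. The summed heart list was high in soleus (1152 to 2708 CPM, against 3.68 to 32.2 CPM in the other muscles) through Myh6 alone, which had a mean of 1706 CPM there.

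Between soleus and EDL, 3 of the 7 members were called higher in soleus, 0 were called lower, and 4 were not called, where 3.59% of all genes were called higher and 2.18% lower. A gene was called when its adjusted p was below 0.01 and its level differed by more than 2 times. The libraries of soleus and EDL did not overlap for 5 members, as for 29.5% of all genes. Between soleus and psoas, 4 members were called higher (Tnnc1, Tnni1, Tnnt1, and Tnnt2), 1 lower (Tnni2), and 2 were not called, where 2.99% of all genes were called higher and 2.71% lower. All 7 members were apart between these muscles, as were 25.8% of genes. The calls of Tnnc1, Tnni1, and Tnnt1 held in all 20 alternatives, whereas Tnni2 was called in 7 and Tnnt2 in 6 of the 20 for soleus against psoas. Leaving out any 1 library other than EDL 3 ended the call of Tnni2, and leaving out any 1 other than psoas 3 ended that of Tnnt2, so that 3 or 4 members were then called rather than 5.

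**Figure D3:**
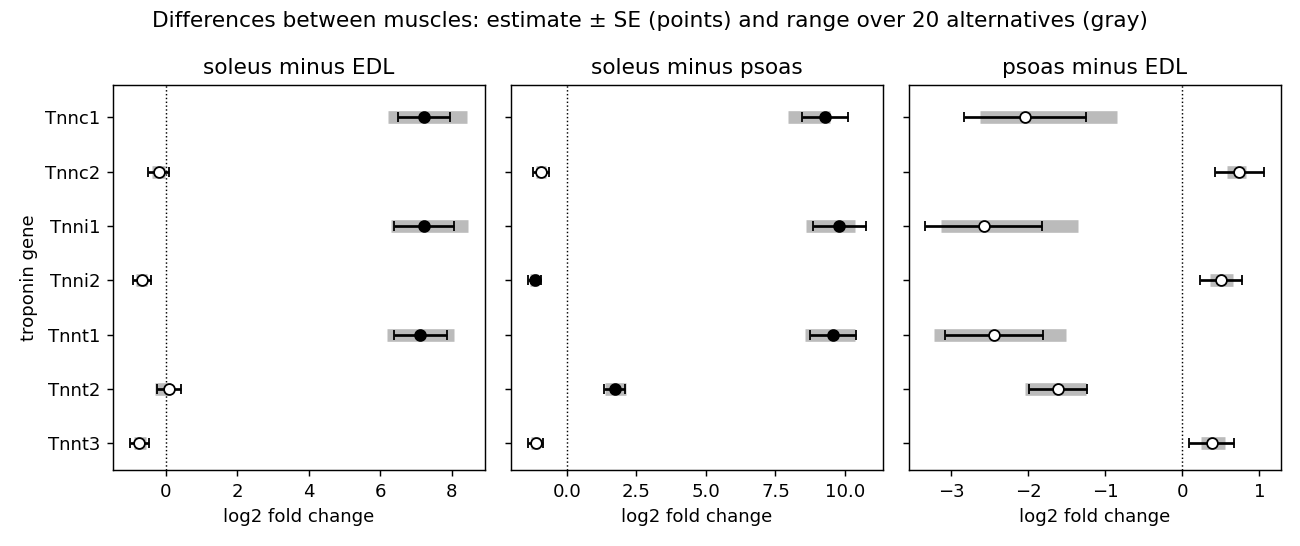
Log2 fold change of each troponin gene (points, edgeR estimate ± SE) in 3 comparisons, each on its own axis; filled points passed both thresholds and gray bars give the range over 20 alternatives. Tnnc1, Tnni1, and Tnnt1 lie between 7.12 and 9.80 above 0 in soleus, and no point of psoas minus EDL is filled.

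Between the fast muscles, 0 of the 7 members were called in edgeR, where 0.54% of all genes were called higher in psoas and 1.57% lower. At an unadjusted p under 0.05 there were 5, as for 29.0% of all genes. DESeq2 called 2 (Tnnt1 and Tnnt2), where it called 6.8% of all genes, and limma-voom with the animal code as a random effect called 0, where it called 2.48%. The slow genes had lower values in psoas, with differences of -2.58 ± 0.75 for Tnni1 (adjusted p = 0.0492), -2.44 ± 0.63 for Tnnt1 (adjusted p = 0.0313), and -2.04 ± 0.79 for Tnnc1 (adjusted p = 0.113). The fast genes had higher values there, with 0.74 ± 0.32 for Tnnc2 (adjusted p = 0.149), 0.50 ± 0.27 for Tnni2 (adjusted p = 0.239), and 0.38 ± 0.29 for Tnnt3 (adjusted p = 0.419). Libraries of the 2 muscles were apart for Tnnc2, Tnni2, and Tnnt2, 3 of the 7, as for 29.6% of all genes. With read trimming as a covariate, the adjusted p of Tnnt1 was 0.0019 and it was called. Tendon markers moved with this comparison. The summed level of all 5 (Tnmd, Scx, Mkx, Kera, and Fmod) was 443 to 465 CPM in EDL, 10.3 to 27.5 CPM in psoas, and 36.4 to 267 CPM in soleus. Their part in the troponin differences was not tested.

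Within trimming classes the directions between psoas and EDL were as in the pooled fit. Among trimmed libraries (2 against 2), the mean level in EDL was 1.86 times that in psoas for Tnnc1, 3.43 times for Tnni1, 4.79 times for Tnnt1, and 4.37 times for Tnnt2. Among untrimmed libraries (1 against 1), these ratios were 7.42, 7.66, 5.69, and 1.94. Soleus had no trimmed library. Against the untrimmed EDL 3, the mean of soleus was 60.9 times higher for Tnnc1, 67.1 times for Tnni1, and 70.2 times for Tnnt1, and against the untrimmed psoas 3 it was 452, 514, and 399 times higher.

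Pairs of muscles under 1 animal code showed the same order. Soleus 1 exceeded psoas 1 by a factor of 758 in Tnnc1, 1260 in Tnni1, and 1270 in Tnnt1. For soleus 4 and psoas 3, these factors were 530, 704, and 458, and for soleus 2 and EDL 3 they were 73.1, 67.1, and 71.1. In these 3 pairs, Tnni2 was 1.94, 2.37, and 2.52 times higher in the fast muscle, and Tnnt3 2.23, 2.20, and 2.65 times. Tnnc2 was 1.16 and 3.38 times higher in psoas, but 1.54 times higher in soleus 2 than in EDL 3.

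The EDL libraries differed among themselves in the slow genes. EDL 3 exceeded EDL 1 by a factor of 12.1 in Tnnc1, 8.78 in Tnni1, and 6.16 in Tnnt1, and exceeded EDL 2 by factors of 3.83, 3.76, and 2.77. It was also the highest EDL library for all 5 other slow genes examined, with Myh7 (slow myosin heavy chain) at 117 CPM against 7.54 in EDL 1 and 30.1 in EDL 2. As a share of the mean soleus level, the slow troponin genes of EDL 3 were at 1.64% (Tnnc1), 1.49% (Tnni1), and 1.43% (Tnnt1), and the other slow genes at 0.792% to 1.64%. In psoas, the highest library held 0.221%, 0.195%, and 0.251% of the soleus mean for Tnnc1, Tnni1, and Tnnt1. Psoas 3 was the highest psoas library in 6 of these 8 genes.

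Without EDL 3, the difference between soleus and EDL grew to 8.43 for Tnnc1, 8.46 for Tnni1, and 8.06 for Tnnt1. The difference between psoas and EDL shrank to -0.85, -1.35, and -1.51 (adjusted p = 0.263, 0.107, and 0.0573). Without psoas 3, it was instead -2.24, -3.13, and -3.22 for the same genes. The size of the slow troponin difference between the fast muscles thus varied with the library left out.

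**Figure D4:**
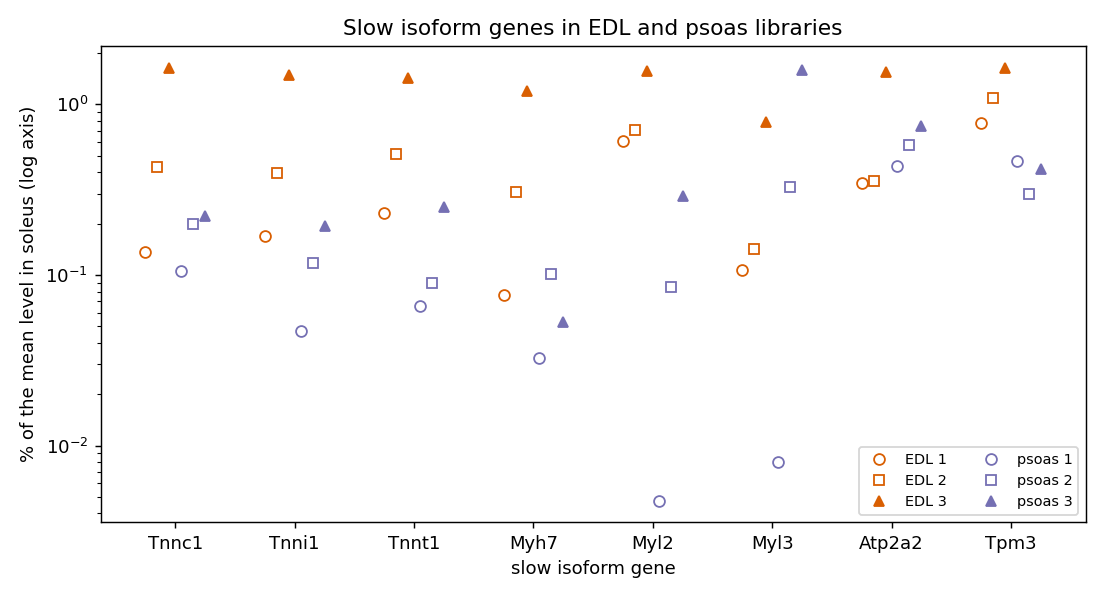
Level of 8 slow isoform genes in each EDL and psoas library as a percent of their mean level in soleus (log axis); filled triangles mark EDL 3 and psoas 3, open symbols replicates 1 and 2. EDL 3 is the highest EDL library in all 8 genes, at 0.792% to 1.64% of soleus.

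The slow share of each subunit was taken per library as the slow gene over all genes of that subunit, in counts per kilobase of exon. These shares combine the levels above and were described without a test. For troponin I, the slow share was 7.50%, 16.9%, 11.8%, and 17.8% in soleus 1 to 4 (mean 13.5% ± 4.80, SD, n = 4), 0.0198%, 0.0392%, and 0.120% in EDL (0.0597% ± 0.0532, n = 3), and 0.00332%, 0.0079%, and 0.013% in psoas (0.00808% ± 0.00485, n = 3). For troponin T it was 18.1%, 27.2%, 19.3%, and 25.1% in soleus (22.4% ± 4.42), 0.0471%, 0.0937%, and 0.197% in EDL (0.113% ± 0.0769), and 0.00779%, 0.013%, and 0.0332% in psoas (0.018% ± 0.0134). Most troponin I and T transcript in soleus was therefore of the fast genes. Per kilobase of summed exon, the slow share was higher for troponin T than for troponin I in all 10 libraries, by 7.25 to 10.6 percentage points in soleus, but this order depended on the length used. Tnnt2 made up 0.00826% of troponin T or less in every library. Without EDL 3, the mean slow share in EDL was 0.0295% for troponin I and 0.0704% for troponin T.

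The share for troponin I depended on the length used. The mean in soleus was 26.9% from raw counts and 27.2% per kilobase of coding sequence, against 13.5% per kilobase of summed exons, since the exons annotated for Tnni1 sum to 3600 bases and those of Tnni2 to 1497, while their coding sequences have 561 and 570 bases. Per coding length, the mean for troponin T was 29.4%, and troponin T had the higher slow share in 3 of 4 soleus, 2 of 3 EDL, and 2 of 3 psoas libraries. In soleus 4 the order turned, with 34.7% for troponin I and 32.6% for troponin T.

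For troponin C, the slow share was 74.9%, 81.7%, 86.6%, and 90.7% in soleus (83.5% ± 6.77), 0.535%, 1.71%, and 8.62% in EDL (3.62% ± 4.37), and 0.338%, 0.491%, and 0.540% in psoas (0.456% ± 0.105). Without EDL 3, the mean in EDL was 1.12%. These values rest on the low count of Tnnc2. In another scaling, the whole count of each gene was divided by the exon bases that no other gene shares (208 for Tnnc2). This holds only if reads within the shared bases were not counted and those reaching into them were not lost. Neither is given in the sources used here. The mean share was then 57.9% ± 11.97 in soleus, 0.995% ± 1.22 in EDL, and 0.119% ± 0.0275 in psoas. The share in soleus ran from 43.7% to 71.7% in these units. The order of the muscles stayed the same in both.

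**Figure D5:**
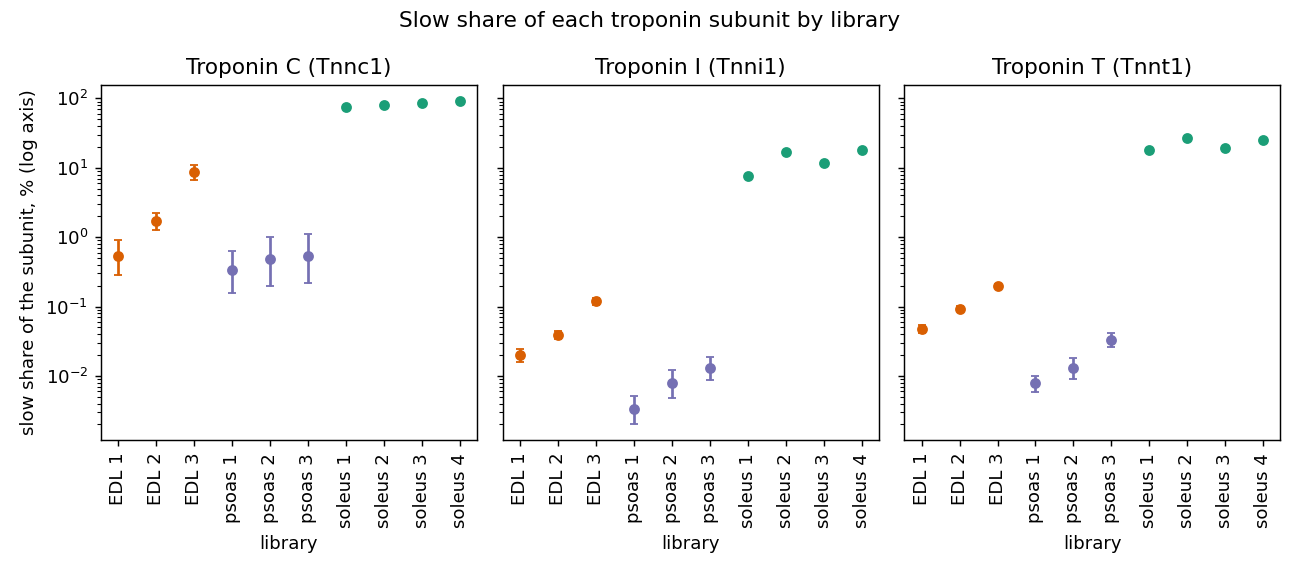
Slow share of troponin C, I, and T (percent, log axis) in each library from counts per kilobase of exon, with 95% exact binomial intervals, which cover counting error only. The 4 soleus libraries lie at 7.50% or more in every subunit, and EDL 3 is the highest EDL library in each.

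Counting error differed between subunits. The exact (Clopper-Pearson) 95% interval of the troponin I share was 0.00203% to 0.00513% in psoas 1 and 0.00885% to 0.0185% in psoas 3, against 17.6% to 18.0% in soleus 4. For troponin C, the intervals of the 3 psoas libraries overlapped (0.155% to 0.642%, 0.197% to 1.01%, and 0.217% to 1.11%), and that of EDL 1 (0.285% to 0.914%) overlapped all of them. The interval of EDL 3 (6.72% to 10.9%) overlapped none of these. These intervals compare single libraries and leave out the spread between animals.

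The slow and fast genes of each subunit were also summed. Slow and fast troponin I together were at 2373 ± 379 CPM per kb in soleus, 3248 ± 602 in EDL, and 4595 ± 154 in psoas. For troponin T these sums were 4939 ± 658, 6397 ± 1312, and 8315 ± 863. For troponin C they were 257 ± 49.6, 49.8 ± 7.61, and 80.8 ± 11.6, higher in soleus, where the sum is mainly Tnnc1. The troponin C sums include the low count of Tnnc2, whose exons overlap Ube2c. Their sizes depend on the exon length used for Tnnc2.

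Genes of the thin filament moved in both directions. Of 23 such genes other than troponins on the list, all counted, 7 were called higher in soleus than in EDL, 3 lower, and 13 were not called, with a median log2 fold change of 0.80 against -0.05 over all genes. Against psoas, 4 were called higher, 3 lower, and 16 were not called (median 0.18, all genes 0.02). Tpm3, the slow tropomyosin to which troponin T binds, was higher in soleus by 6.42 ± 0.36 than in EDL (adjusted p = 4.64e-06) and by 7.99 ± 0.39 than in psoas (adjusted p = 1.59e-06). Tpm1, the fast tropomyosin, was lower in soleus than in psoas (log2 difference -1.46 ± 0.26, adjusted p = 0.00319), and its difference from EDL did not pass (-0.84 ± 0.26, adjusted p = 0.0412). Lmod2, which elongates thin filaments at the pointed end, and Actn2, a crosslinker of the Z-disk, were also higher in soleus than in both fast muscles, and Tmod1, which caps the pointed end, and the fast-fiber crosslinker Actn3 were lower. Between psoas and EDL, Tpm2 (1.36 ± 0.20, adjusted p = 0.00357) and Ldb3 were called higher in psoas and 21 of the 23 were not called.

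Most slow partners of the thick filament and of calcium handling were higher in soleus, like the slow troponins. Of 9, 7 were called higher in soleus than in EDL and 7 than in psoas, with medians of 5.62 and 6.60, and 0 were called between psoas and EDL. The 7 were the same genes in both comparisons (Myh7, Myl2, Myl3, Atp2a2, Casq2, Sln, and Myoz2). Pln (1.70 from EDL and 2.66 from psoas) and Mybpc1 (0.88 and 0.87) were called in neither. Of 10 fast partners, 8 were called lower in soleus than in either fast muscle (Myh4, Myl1, Mylpf, Casq1, Pvalb, Actn3, Myoz1, and Mybpc2), with medians of -1.70 and -2.01. The differences of Tnni2 (-0.66 and -1.16) and Tnnt3 (-0.73 and -1.11) were smaller in size than these medians. Myh4, the fastest myosin heavy chain, had log2 differences of -5.16 from EDL and -5.46 from psoas in soleus.

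Of 25 regulators known to act at troponin or fiber-type promoters, 4 were called higher in soleus than in EDL (Tead1, Vgll2, Prox1, and Esrrg) and 0 lower. Against psoas, Prox1 and Esrrg were called higher and Sox6 and Nr4a1 lower, and 21 of the 25 were not called. Prox1, a homeobox factor of slow fibers, was higher by 3.87 ± 0.40 than in EDL (adjusted p = 0.000146) and by 2.93 ± 0.38 than in psoas (adjusted p = 0.00058). Esrrg, an orphan nuclear receptor of oxidative fibers, was higher by 3.60 ± 0.20 (adjusted p = 4.64e-06) and 2.07 ± 0.19 (adjusted p = 8.96e-05). Sox6, a repressor of slow genes in fast fibers, had a level of 26.4 ± 2.61 CPM in soleus, 41.0 ± 5.26 in EDL, and 76.2 ± 10.9 in psoas, and was lower than in psoas (log2 difference -1.53 ± 0.16, adjusted p = 0.000162). Tead1, which binds the MCAT element, was higher than in EDL in both soleus (2.02 ± 0.28, adjusted p = 0.000848) and psoas (1.69 ± 0.29, adjusted p = 0.00645). Between psoas and EDL, 3 of the 25 were called higher in psoas, 0 lower, and 22 were not called. Besides Tead1, these were Vgll2 (1.42 ± 0.22, adjusted p = 0.00416) and Esrrg (1.52 ± 0.20, adjusted p = 0.0023).

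The troponin genes stand in pairs along the chromosomes, a troponin I gene beside a troponin T gene. Tnni1 lies 25364 bases from Tnnt2 (1:135836354-135852260) on the same strand. Only Tnni1 of this pair was called higher in soleus than in EDL, and both were called higher in soleus than in psoas. Tnnt1 lies 1922 bases from Tnni3 (7:4518305-4524229), whose levels were under 1 CPM in all libraries and which was likewise called higher in soleus than in psoas. The levels of the pair Tnni2 and Tnnt3 had the ratios given above. Of 12 neighboring genes that are no members, 0 were called between soleus and EDL in edgeR, 1 (Tnni3) was called higher in soleus than in psoas, and 1 (Lsp1, between Tnni2 and Tnnt3) was called lower in psoas than in EDL. Nisch, whose gene span contains Tnnc1 on the opposite strand without a shared exon base, was at 33.5 to 59.6 CPM in soleus and 18.4 to 28.9 CPM in the other libraries, and its differences of 0.72 and 0.81 were not called (adjusted p = 0.0418 and 0.0304).

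The genes most like each member over the 10 libraries were sought by Pearson's r of log2(CPM + 1) among 12706 genes with a mean of at least 1 CPM. These values describe libraries that fall into separate muscles. Tnni1 was the nearest gene to both other slow members (r = 0.995 with Tnnc1 and 0.998 with Tnnt1), and Tnnc1 and Tnnt1 had r = 0.992 with each other. Outside the members, Tnnc1 was nearest to Myh6, Tpm3, and Atp2a2 (r = 0.995, 0.993, and 0.993), Tnni1 to Myh7, Tpm3, and Myh6 (0.995, 0.993, and 0.991), and Tnnt1 to Tpm3, Myh7, and Ankrd50 (0.994, 0.993, and 0.992). Tnni2 was nearest to St3gal6 (0.989), Tmod1 (0.984), and Tpi1 (0.982), and Tnnt3 to Bsg (0.980), Phkb (0.979), and Aldoa (0.978), while the 2 fast genes had r = 0.981 with each other. Tpi1, Phkb, and Aldoa encode proteins of glycolysis and glycogen breakdown. Tnnc2 had r = 0.534 with Tnni2 and 0.467 with Tnnt3, and was nearest to Arl6ip6, Atp13a2, and Lrrc61 (0.894, 0.891, and 0.874), none of which encodes a contractile protein. Tnnt2 was nearest to Dmxl2, Atrnl1, and Rgs4 (0.968, 0.954, and 0.952).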

How the data were processed

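RNA was sequenced by the authors from 10 muscle samples with a stranded total RNA kit in read pairs of 75 bases. The authors trimmed the reads of 4 libraries (Trimmomatic 0.32), aligned them to GRCm38.p4 (TopHat2 2.1.1, per the submitters' processing notes), counted reads per gene with GenomicFeatures and GenomicAlignments, and dropped genes that did not reach 10 reads in 3 or more samples. The deposited values are raw counts per Ensembl gene, without normalization, and were used as such. The sequencing run of each library is not given in the sources used here, so no batch term was fitted.

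Counts were fitted with edgeR 4.0.16 (quasi-likelihood test, TMM normalization, R 4.3.3) in 1 model of the 10 libraries with no covariate, for 3 comparisons of muscles taken from the labels. P-values were adjusted over the 16112 genes by the Benjamini-Hochberg method. The limits for a call were 0.01 for the adjusted p and 2 for the fold change. The script was tested on simulated data. Levels are TMM-normalized counts per 1000000 (CPM), divided by summed exon length in kilobases (GENCODE M21) where genes were compared. Intervals of shares were exact binomial (scipy 1.17.1, 95%), rescaled by length. Intervals and the limit of 3 counts behind a count of 0, which stands for 0.0595 to 0.236 CPM in these libraries, cover counting error only. Alternatives were DESeq2 1.42.0, limma-voom with the animal code as a random effect (limma 3.58.1), other normalizations, a filter on low counts, fits of the 2 muscles alone, covariates for read trimming and replicate number, other thresholds, other lengths, and leaving out each library. The scaling to unshared exons was added after seeing the data.

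The members and gene lists were chosen with earlier results of these data known. Text names all 7 members, genes of the lists for thin filament, slow and fast partners, regulators, chromosomal neighbors, and cell type markers, and the 3 genes most correlated with each member. Of the marker lists not quoted above, satellite cell markers (3 genes) summed to 3.99 to 10.5 CPM and smooth muscle markers (4 genes) to 24.5 to 70.5 CPM. Developing muscle markers (5 of 6 in the filtered count tables) summed to 923 to 1020 CPM in EDL, 1037 to 1552 in psoas, and 379 to 534 in soleus.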

Additional observations from a re-analysis of the deposited data

Results flagged for a closer look

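Tnnt2 in soleus 3 stood apart from the other soleus libraries. Its normalized level was 3.43 CPM, on 43 reads, against 2.60 to 2.74 CPM in soleus 1, 2, and 4, with a gap of 0.837 of the range of the group (above Dixon's 95% critical value for 4 libraries). Soleus 3 came from the youngest animal (32 days) and had the lowest total count. Among the 11 quantities examined this way in soleus it was the only one beyond the limit. Chance gives about 1 in 20 for each quantity, so that 1 among 11 is not unusual.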

How the results depend on the processing

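The calls of Tnnc1, Tnni1, and Tnnt1 in soleus against EDL and against psoas kept their side of the thresholds in all 20 alternatives. Between soleus and psoas, the 5 members called became 3 with RLE size factors, in a fit of the 2 muscles alone, with the replicate block, and with the read trimming covariate, and 3 to 4 without single libraries, and the calls lost were those of Tnni2 and Tnnt2. There were 4 with upper-quartile normalization, and 6 in DESeq2, in limma-voom with the animal code, and at an adjusted p under 0.05, where Tnnt3 was gained. Between psoas and EDL, the 0 members called became 2 in DESeq2, 1 with the trimming covariate, and 3 at an adjusted p under 0.05. The cause of these changes was not tested. The difference of Tnnt2 between soleus and EDL (0.10) changed sign to -0.28 with the trimming covariate and to -0.0467 without soleus 3 (range without single libraries -0.0467 to 0.15), and was called in neither. Replicate numbers did not pair the samples, since correlations of deviations between same-numbered libraries ran from -0.31 to 0.51 and the numbers mark different animals in most cases. The replicate block changed the count of calls only between soleus and psoas.

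The slow share of troponin C was 8.62% in EDL when restricted to untrimmed reads (EDL 3 alone). In psoas it was 0.593% from raw counts, 0.576% per longest transcript, 0.590% per coding length, and 0.119% per unshared exon, and in soleus 57.9% per unshared exon. The slow share of troponin I was 0.143% (raw counts), 0.146% (coding length), and 0.120% (untrimmed reads) in EDL, 0.0194%, 0.0197%, and 0.013% in psoas, and 26.9% and 27.2% (raw counts and coding length) in soleus. The slow share of troponin T was 0.197% in EDL and 0.0332% in psoas from untrimmed reads alone, and 28.6%, 29.0%, and 29.4% in soleus by raw counts, longest transcript, and coding length. Without single libraries, the mean slow share in EDL ran from 1.12% to 5.17% for troponin C, 0.0295% to 0.0796% for I, and 0.0704% to 0.146% for T. In psoas it ran from 0.415% to 0.516%, 0.00561% to 0.0105%, and 0.0104% to 0.0231%, and in soleus from 81.1% to 86.3%, 12.1% to 15.5%, and 20.8% to 23.8%. The shares in psoas rest on few reads of the slow genes, and those of troponin C on a count of Tnnc2 that overlaps Ube2c.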
